A study of Mus musculus with 6 samples.

Results

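The circadian clock of the heart was followed here through 10 of its genes: Arntl, Npas2, Per1, Per2, Per3, Cry1, Nr1d1, Nr1d2, Dbp and Tef. They were found by gene symbol in a table of 45777 genes, and all 10 were among the 18328 genes tested, those averaging 10 counts or more over the libraries. RNA was captured and sequenced from the hearts of nude mice with human breast tumours, with 1 library for each of 6 conditions. Each library held the hearts of 5 mice mixed together, so no spread between single mice can be given.

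All mice were female BALB/c nude animals (CAnN.Cg-Foxn1nu/Crl), 6 weeks old at the start, which lack the T cells made in the thymus. All of them, Control mice included, carried MDA-MB-231 cells, a human breast cancer line, injected under the skin. Treatment began on day 7 after the injection and lasted 3 weeks. The Control group received vehicle. Ginsenoside Rh2, a triterpene glycoside of ginseng, was given daily at 20 mg/kg (Rh2-20) or 30 mg/kg (Rh2-30). Doxorubicin (Dox), an anthracycline that intercalates into DNA and inhibits topoisomerase II, was given at 2 mg/kg every other day to a total of 22 mg/kg, alone or with either dose of Rh2. The time of day at which hearts were taken is not given in the sources used here.

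In mammalian cells the clock is a loop of transcription and repression. ARNTL (also called BMAL1) pairs with CLOCK or NPAS2, binds E-boxes and drives the Per and Cry genes, whose proteins then silence the pair. A second loop joins it, in which the receptors NR1D1 and NR1D2 repress Arntl through RORE sites, while DBP and TEF carry the rhythm to output genes through D-boxes. In mouse heart the RNA of Arntl and Npas2 crests at the opposite time of day from that of Nr1d1, Dbp, Tef and the Per genes, so hearts taken at different clock times differ in these genes in opposite directions. A difference in the 10 genes between libraries can therefore hold both the time of collection and the treatments. No condition had a replicate library and the collection times are unknown, so the comparison cannot tell one from the other.

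Start site sequences are shown for the members whose values are set against each other below, so that the sites named above can be seen. They are RefSeq sequences of GRCm38.p6, the assembly also called mm10, written 5′ to 3′ on the gene's strand, upstream of exons in GENCODE vM21 for all but Arntl. Capitals mark a match to an E-box (CACGTG), an E-prime box (CACGTT, read as AACGTG on the other strand), a D-box (TTATGNAA), a RORE (TAGGTCA) or a cyclic AMP response element (TGACGTCA), searched on both strands.
Per1, chr11:69098699-69098947, plus strand: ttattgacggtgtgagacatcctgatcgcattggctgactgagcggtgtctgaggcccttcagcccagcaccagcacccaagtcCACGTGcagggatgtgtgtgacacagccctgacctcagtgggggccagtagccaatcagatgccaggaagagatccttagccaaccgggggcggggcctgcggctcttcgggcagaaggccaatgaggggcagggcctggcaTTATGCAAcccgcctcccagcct
Cry1, chr10:85185065-85185304, minus strand: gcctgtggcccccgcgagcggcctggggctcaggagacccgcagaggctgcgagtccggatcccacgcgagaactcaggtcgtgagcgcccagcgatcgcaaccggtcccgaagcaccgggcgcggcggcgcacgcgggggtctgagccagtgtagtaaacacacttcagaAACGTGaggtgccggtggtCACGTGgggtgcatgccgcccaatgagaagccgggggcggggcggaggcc
Nr1d1, chr11:98775378-98775627, minus strand: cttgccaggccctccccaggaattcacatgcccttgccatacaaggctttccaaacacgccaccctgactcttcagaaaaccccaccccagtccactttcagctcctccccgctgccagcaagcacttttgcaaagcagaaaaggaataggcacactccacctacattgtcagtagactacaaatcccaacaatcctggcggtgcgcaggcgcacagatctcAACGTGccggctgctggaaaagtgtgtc
Dbp, chr7:45704997-45705087, plus strand: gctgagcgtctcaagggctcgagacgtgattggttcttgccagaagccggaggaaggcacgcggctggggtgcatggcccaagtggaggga
Arntl, chr7:113207529-113207558, plus strand, inside the untranslated first exon: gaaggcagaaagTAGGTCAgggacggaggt

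The search window ran from 250 bases before to 50 bases after each annotated start, and 9 of the 10 members had such an entry, Per2 being the member without one. Per1 had an E-box 166 bases and a D-box 24 bases before an annotated start that lies inside the gene's annotated span. In Cry1 an E-box lay 60 bases and an E-prime box 79 bases upstream, and Nr1d1 had an E-prime box 28 bases upstream. Arntl carried its RORE 30 bases after a start. Tef had an E-box before both of its annotated starts, Per3 had D-boxes 205 and 158 bases upstream, and the windows of Npas2, Nr1d2 and Dbp held none of these letters. Over 32851 start sites of all genes, an E-box was found in 7.15%, an E-prime box in 4.68%, a D-box in 3.38%, a RORE in 2.61% and a cyclic AMP response element in 1.79%.

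The libraries held 86164411 to 90621002 counts each. Atrial, white fat and globin genes and the brown fat gene Ucp1 differed between the libraries far more than any clock gene did. Of the skeletal muscle genes tested, Acta1, Tnnt3 and Ckm differed by at most 1.75-, 1.69- and 1.46-fold. Myh1 and Myh2 had at most 28 and 42 counts. The 4 atrial genes (Myl7, Sln, Nppa and Myl4) summed to 45.7 CPM (counts scaled to library size) in Control, 62.0 in Rh2-20, 75.3 in Rh2-30 + Dox, 379 in Dox, 403 in Rh2-20 + Dox and 1662 in Rh2-30. The white fat list was highest in Rh2-30 too, at 199 CPM against 0.345 to 37.1 elsewhere. Ucp1 had 6442 counts there against 0 to 12 in the other libraries. The summed brown fat list, which includes Ppargc1a, was highest in Dox, at 452 CPM against 400 in Rh2-30. The 4 globin genes ran from 1604 CPM in Rh2-30 + Dox to 9727 in Dox, and the 7 cardiomyocyte genes from 19564 in Rh2-30 to 26957 in Rh2-30 + Dox. Macrophage genes summed to 107 to 275 CPM and fibroblast genes to 680 to 1162, both lowest in Rh2-30 + Dox and highest in Rh2-30. Cardiomyocyte markers were abundant in every library, matching the heart label, and of the lung markers Sftpc was at 0 in every library and Sftpb had at most 4 counts, while Scgb1a1 had 730 counts in Rh2-30 against 9 to 98 elsewhere. Rh2-30 stands apart in several of these lists, and the ranges and main differences are also given below without it. In such bulk tissue, fewer cells of a type and less RNA per cell cannot be told apart. The part these markers have in the clock values was not tested.

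Clock RNA levels were ordered by FPKM, which divides by transcript length, with the SD over the 6 libraries. The repressor receptor Nr1d2 was the highest at 48.2 ± 2.60, above every library of the other members. Per1 (35.8 ± 4.31) and Nr1d1 (35.6 ± 4.37) followed and did not differ beyond their spread. Per3 (25.8 ± 3.55), Per2 (24.2 ± 6.26) and Dbp (23.0 ± 3.69) overlapped one another. Below these stood Tef (12.8 ± 1.22), Cry1 (5.89 ± 0.874), Npas2 (2.1 ± 0.386) and Arntl (1.23 ± 0.299), each lower than its neighbour in every library. The activators Npas2 and Arntl were thus the lowest of the 10 genes by this measure.

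No member differed by 2-fold between any pair of libraries. The range, that is the highest minus the lowest log2 CPM over the 6 libraries, had a median of 0.51 over the 10 genes and of 0.61 over all genes tested. A range of 2-fold or more was reached by 0 of 10 members and by 28.4% of all genes tested. Nr1d2 had the smallest range (0.25, or 1.19-fold), followed by Arntl (0.32, 1.25-fold), Tef and Per1 (both 0.44, 1.36-fold), Nr1d1 (0.50, 1.41-fold) and Per3 (0.52, 1.44-fold). Dbp (0.61, 1.53-fold), Cry1 (0.62, 1.54-fold), Npas2 and Per2 (both 0.86, 1.82-fold) had the largest. Rh2-30 was the lowest library for Npas2, Per2, Per3, Cry1, Nr1d2 and Tef, and without it their ranges were 0.64, 0.84, 0.46, 0.45, 0.21 and 0.33. The median over the 10 members was then 0.45, and 0.52 over all genes, of which 23.6% reached 2-fold. Where a member stood depended on the scale, because low genes are pressed together by an added constant: on log2(FPKM + 1) the members' median range was 0.47, above the 0.35 of all genes, of which 5.83% then reached 2-fold.

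**Figure D1:**
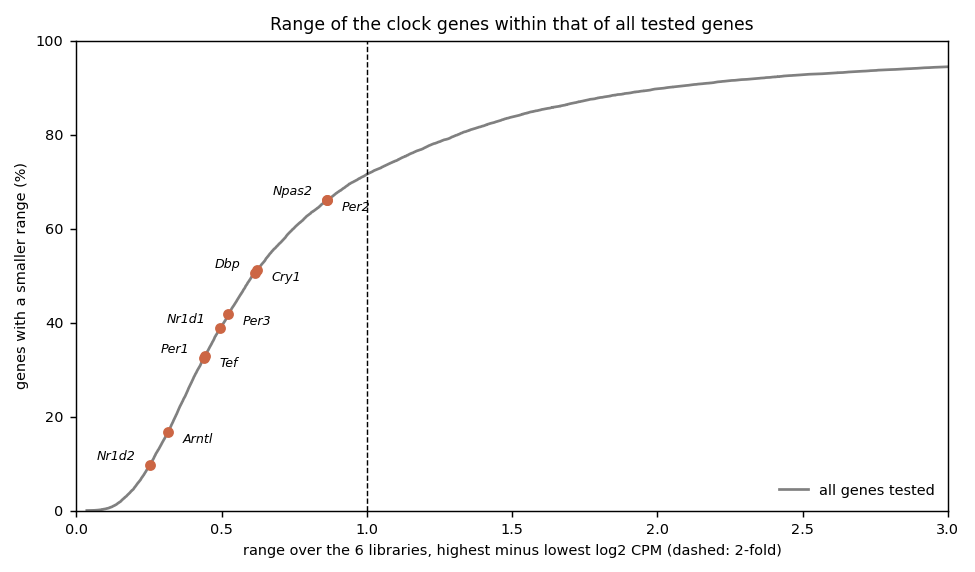
Range of expression over the 6 heart libraries (x axis, highest minus lowest log2 CPM) against the percentage of the 18328 tested genes with a smaller range (y axis). Orange points mark the 10 clock genes, which run from 0.25 for Nr1d2 to 0.86 for Per2 and Npas2, all left of the dashed 2-fold line. The grey line is all tested genes.

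Arntl, the activator whose loss stops the clock, had the second smallest range. It had 454 counts in Control, 394 in Rh2-20, 487 in Rh2-30, 426 in Dox, 414 in Rh2-20 + Dox and 409 in Rh2-30 + Dox. In CPM these were 5.45, 4.38, 5.14, 5.07, 4.52 and 4.71. Control was the highest library and Rh2-20 the lowest, and libraries with and without Dox overlapped. On the log2 scale the 95% counting interval of the difference from Control ran from -0.52 to -0.12 in Rh2-20, from -0.47 to -0.08 in Rh2-20 + Dox and from -0.41 to -0.02 in Rh2-30 + Dox. It included 0 in Rh2-30 and in Dox, and with the common dispersion between libraries added (0.0285) it included 0 in all 5. Its deposited FPKM values did not follow the counts: they were 0.769 in Rh2-20 + Dox and 0.95 in Rh2-30 + Dox against 1.31 to 1.48 in the other 4 libraries. Clock, the partner of ARNTL, had a range of 0.24.

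Npas2, which can replace CLOCK in the pair, had 12.2 CPM in Control, 8.92 in Rh2-20, 7.66 in Rh2-30, 13.9 in Dox, 11.0 in Rh2-20 + Dox and 12.9 in Rh2-30 + Dox. The 2 libraries given Rh2 alone were the lowest, and the other 4 ran from 11.0 to 13.9 CPM. Its differences from Control were -0.46 for Rh2-20 and -0.68 for Rh2-30 on the log2 scale. The interval with the common dispersion reached from -1.37 to 0.01 for Rh2-30.

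Per2, a repressor of the loop, was the member that differed most with Dox. It had 141 CPM in Control, 142 in Rh2-20, 139 in Rh2-30, 252 in Dox, 196 in Rh2-20 + Dox and 237 in Rh2-30 + Dox. The 3 libraries without Dox were nearly level, and all 3 with Dox stood above them, at 229 ± 29.2 against 141 ± 1.67 CPM (SD, n = 3). These SDs, here and for the genes below, are over pooled libraries that differ in Rh2 dose, not over mice. On the log2 scale the difference with Dox was 0.70 ± 0.11 (SE), or 1.63-fold. In edgeR's quasi-likelihood test p was 0.000358 and the Benjamini-Hochberg adjusted p over all genes 0.149, so Per2 did not pass the adjusted threshold of 0.05. DESeq2's Wald test gave it an adjusted p of 1.69e-06. Leaving out each library in turn kept the difference between 0.62 and 0.80, and it was 0.70 without Rh2-30.

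Per1 and Per3, the paralogs of Per2, did not share that pattern. Per1 had 255 CPM in Control, 243 in Rh2-20, 240 in Rh2-30, 190 in Dox, 207 in Rh2-20 + Dox and 257 in Rh2-30 + Dox. Dox and Rh2-20 + Dox were the lowest libraries and Rh2-30 + Dox the highest, so the groups overlapped, and the difference with Dox was -0.18 (adjusted p = 0.681, edgeR). The ratio of Per2 to Per1 counts within a library, which needs no scaling between libraries, was 0.554, 0.584 and 0.577 in Control, Rh2-20 and Rh2-30, and 1.33, 0.949 and 0.924 in Dox, Rh2-20 + Dox and Rh2-30 + Dox. Per3 had 196 CPM in Control, 166 in Rh2-20, 152 in Rh2-30, 218 in Dox, 169 in Rh2-20 + Dox and 158 in Rh2-30 + Dox. It was highest in the 2 libraries without Rh2 and its difference with Dox was 0.09 (adjusted p = 0.892, edgeR).

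Cry1, the partner of the PER proteins in repression, had 20.9 CPM in Control, 21.4 in Rh2-20, 18.5 in Rh2-30, 28.0 in Dox, 22.3 in Rh2-20 + Dox and 28.5 in Rh2-30 + Dox. All 3 Dox libraries lay above the 3 without, but Rh2-20 + Dox only narrowly. The means were 26.3 ± 3.45 with Dox and 20.3 ± 1.52 without (SD, n = 3), a log2 difference of 0.37 ± 0.12 (SE). The adjusted p was 0.394 with edgeR and 0.161 with DESeq2, and the difference was 0.33 without Rh2-30.

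Dbp, the transcription factor that carries the rhythm to D-boxes, differed in the other direction. It had 60.8 CPM in Control, 52.7 in Rh2-20, 52.6 in Rh2-30, 44.2 in Dox, 39.8 in Rh2-20 + Dox and 42.1 in Rh2-30 + Dox. All 3 libraries with Dox were below the 3 without, at 42.0 ± 2.23 against 55.4 ± 4.72 CPM (SD, n = 3), and Control was the highest. The log2 difference was -0.40 ± 0.093 (SE), with an adjusted p of 0.287 in edgeR and 0.0237 in DESeq2. Without any single library it lay between -0.44 and -0.33, and it was -0.42 without Rh2-30. Tef, a close relative of Dbp that binds the same sites, did not move with it. It had 73.4, 67.3 and 62.2 CPM in Control, Rh2-20 and Rh2-30, and 83.0, 67.4 and 84.6 in Dox, Rh2-20 + Dox and Rh2-30 + Dox, with overlapping groups and a difference of 0.21 (adjusted p = 0.590, edgeR).

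The repressor receptors differed little. Nr1d1 had 128 CPM in Control, 115 in Rh2-20, 116 in Rh2-30, 162 in Dox, 115 in Rh2-20 + Dox and 134 in Rh2-30 + Dox. Dox stood above the other 5 libraries, but the groups with and without Dox overlapped and the difference was 0.20 (adjusted p = 0.671, edgeR). Nr1d2 had 298, 294 and 272 CPM in Control, Rh2-20 and Rh2-30, and 324, 280 and 282 in Dox, Rh2-20 + Dox and Rh2-30 + Dox. Its groups overlapped as well, with a difference of 0.04 (adjusted p = 0.927, edgeR).

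**Figure D2:**
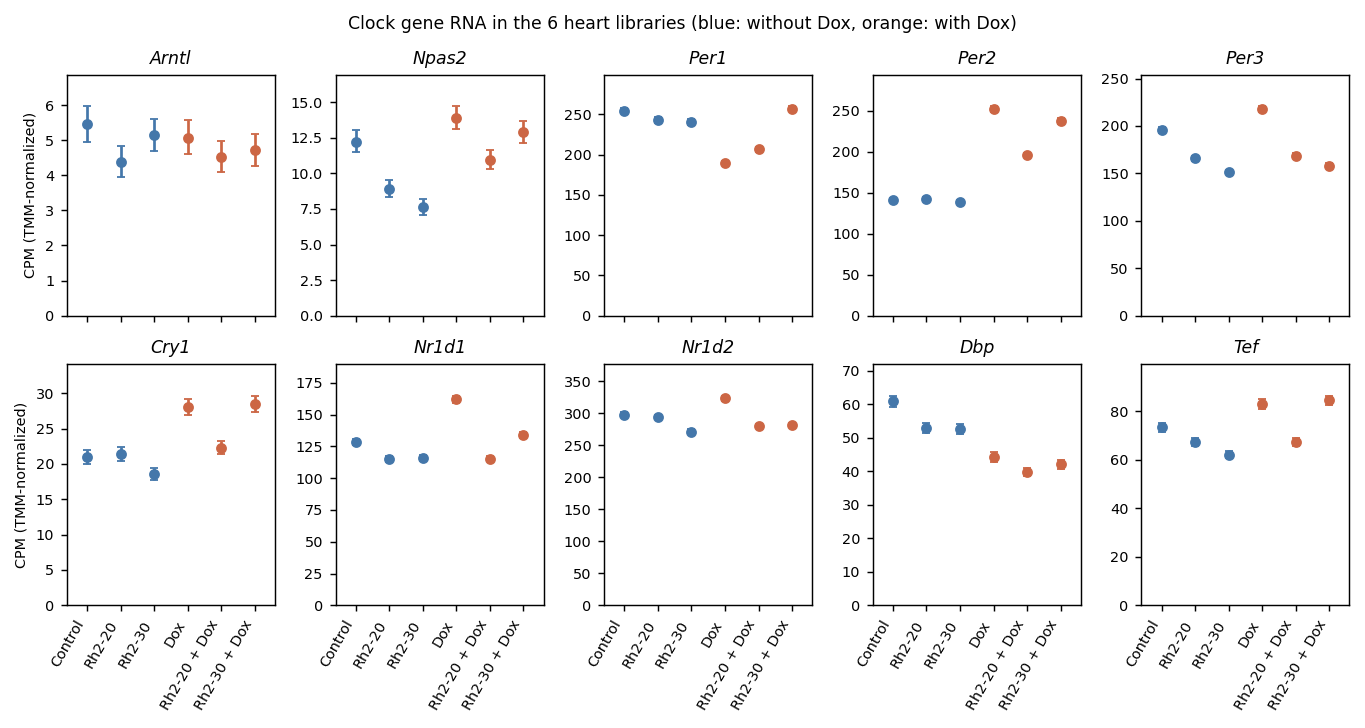
CPM of each clock gene (y axes, TMM-normalized, each starting at 0) in the 6 heart libraries (x axes), blue without Dox and orange with Dox. Bars are 95% Poisson counting intervals of 1 library and hold no spread between mice. Per2 stands at 139 to 142 without Dox and 196 to 252 with it, and Dbp at 52.6 to 60.8 and 39.8 to 44.2.

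Several members overlap another annotated gene: Nr1d1 and Thra on chromosome 11 share their 3′ ends, and the annotated spans of Dbp and Sphk2, Per3 and Uts2, Per2 and Gm35591, and Arntl and Gm33721 also overlap, as does that of Npas2 with 3 predicted genes. The sources used here do not state whether counting used the strand, so reads in the shared stretches could have gone to either gene. Uts2 had at most 9 counts in any library. Thra, a thyroid hormone receptor, was at 62.3 to 74.6 CPM, and the ratio of Nr1d1 to Thra counts was 2.47 in Dox against 1.72 to 1.89 elsewhere. Sphk2, a sphingosine kinase, was at 17.4 to 18.3 CPM without Dox and 20.7 to 25.2 with it, the opposite direction from Dbp.

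Across the 3 libraries with Dox and the 3 without, 2 of 10 members (Per2 and Cry1) lay wholly higher with Dox, beside 7.85% of all genes tested, and 1 (Dbp) wholly lower, beside 9.16%. An unadjusted p under 0.05 was reached by 3 of 10 in edgeR, these same genes, beside 10.1% of all genes. After adjustment 0 of 10 passed, beside 5 of 18328 genes (0.0273%). DESeq2's Wald test called 2 of 10 (Per2 and Dbp), beside 2.33% of the genes for which it gave an unadjusted p. The median log2 difference was 0.14 over the 10 members and -0.01 over all genes. These p-values measure only the spread among 6 pooled libraries. The part of collection time in the Per2, Cry1 and Dbp differences with Dox was not tested, since that time is not given.

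The Dox difference was also taken at each Rh2 dose, where 1 library stands against 1 and no test can be made. For Per2 it was 0.84 without Rh2, 0.47 at 20 mg/kg and 0.77 at 30 mg/kg on the log2 scale. With the common dispersion added, the 95% interval was 0.16 to 1.51 without Rh2 and 0.10 to 1.45 at 30 mg/kg, and it included 0 at 20 mg/kg. Dbp was lower at all 3 doses, with differences of -0.46, -0.41 and -0.32, each with an interval that included 0. Cry1 was nearly level at 20 mg/kg, at 0.06 against 0.42 and 0.62. Npas2 ran from 0.19 without Rh2 over 0.30 to 0.75 at 30 mg/kg, the interval of the last being 0.06 to 1.44. Per1 went from -0.43 over -0.23 to 0.10. Apart from the intervals given for Per2 and Npas2, those of all 10 genes at all 3 doses included 0.

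**Figure D3:**
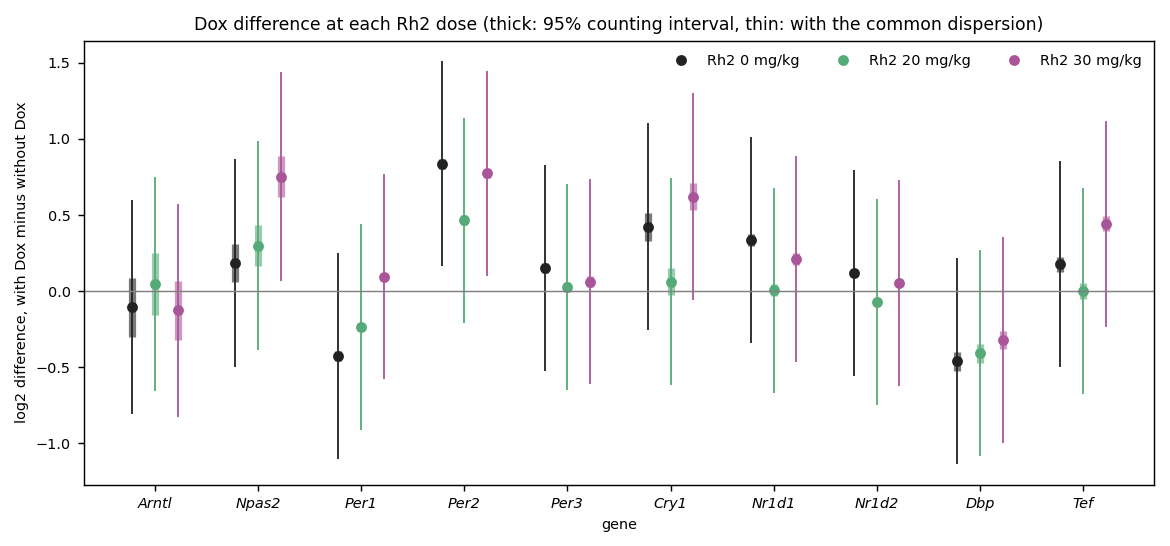
Log2 difference with minus without Dox (y axis) for the 10 clock genes (x axis) at 0, 20 and 30 mg/kg Rh2, 1 library against 1 each. Thick bars are 95% counting intervals and thin bars add the common dispersion of 0.0285. Per2 lies above 0 at each dose (0.84, 0.47 and 0.77) and Dbp below it (-0.46, -0.41 and -0.32), and the thin bars of most genes cross 0.

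Each treated library was then set against the same Control library, so these 5 comparisons share their reference. Past 2-fold stood 0 of 10 members in each, beside 6.15% of all genes in Rh2-20, 10.1% in Rh2-30, 8.75% in Rh2-20 + Dox, 10.9% in Rh2-30 + Dox and 9.02% in Dox. The median log2 difference of the members was -0.14, -0.16, -0.16, 0.04 and 0.16 in that order, and that of all genes was between -0.01 and 0.03. Rh2 with Dox against Dox alone gave intervals with the common dispersion that included 0 for all 10 genes at both doses. The differences there ran from -0.49 (Nr1d1 in Rh2-20 + Dox) to 0.44 (Per1 in Rh2-30 + Dox).

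Rh2 was compared over the 4 libraries with it and the 2 without, with Dox as a term. Per3 had a log2 difference of -0.36 ± 0.083 (SE), with an unadjusted p of 0.00548 and an adjusted p of 0.567 in edgeR, and 0.00799 in DESeq2. Npas2 (-0.40, adjusted p = 0.568, edgeR) and Nr1d1 (-0.27, adjusted p = 0.568, edgeR) were the other members with an unadjusted p under 0.05, which makes 3 of 10 beside 8.74% of all genes. With adjustment edgeR called 0 members and 0 genes (0%), with 1602 genes at an unadjusted p under 0.05. DESeq2 called 1 member, Per3, beside 242 genes (1.32%). Per3 and Nr1d2 were lower in all 4 libraries with Rh2 than in both without, 2 of 10 beside 9.08% of all genes. The highest library of both genes was Dox, followed by Control. That of Npas2 was -0.31 without Rh2-30, and that of Nr1d1 -0.15 without Dox. Without any single library the difference of Per3 lay between -0.41 and -0.31.

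Opposite movement of Arntl and the other members was looked for over the 6 libraries, as a check of clock phase. Pearson's r of log2 CPM between Arntl and each of the other 9 ran from -0.16 (Cry1 and Per2) to 0.54 (Dbp), and Spearman's rho from -0.43 (Cry1) to 0.54 (Nr1d1). The smallest unadjusted p of r in the exact two-sided permutation test was 0.238, for Dbp, and every adjusted p was 0.840 for r and 0.919 for rho over the 9 relations. Without Control and Rh2-20, the libraries farthest from the median of Arntl, r with Dbp was 0.86, while the sign turned for Npas2 (from 0.20 to -0.31), Per1 (from 0.09 to -0.06) and Tef (from 0.13 to -0.08). No relation between Arntl and another member could be shown. The ratio of Dbp to Arntl counts within a library was 11.2, 12.1 and 10.2 in Control, Rh2-20 and Rh2-30, and 8.72, 8.80 and 8.94 in Dox, Rh2-20 + Dox and Rh2-30 + Dox. The ratio of Per2 to Dbp was 2.32, 2.69 and 2.64 without Dox, and 5.71, 4.93 and 5.64 with it, in the same order of Rh2 doses. Per2 lay wholly higher and Dbp wholly lower with Dox, so their ratio had to differ and is no check of phase.

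The ranges of 18 other clock genes had a median of 0.54 on the log2 scale, against 0.61 over all genes tested. Fbxl21, of a ubiquitin ligase that acts on CRY proteins, had a range of 1.57 but only 29 to 95 counts. Its lowest value was in Dox and its highest in Rh2-20 + Dox, so libraries with and without Dox overlapped.

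Among 17 genes known to be rhythmic in the heart or in many tissues, 3 (Ucp3, Pdk4 and Pik3r1) had a range of 2-fold or more, beside 28.4% of all genes. Ucp3, a mitochondrial carrier of muscle, was at 46.3, 35.4 and 44.3 CPM in Control, Rh2-20 and Rh2-30, and at 11.5, 10.3 and 19.5 in Dox, Rh2-20 + Dox and Rh2-30 + Dox. Its groups did not overlap and the log2 difference was -1.61 ± 0.25 (SE), with an adjusted p of 0.149 in edgeR and 8.52e-08 in DESeq2. Pdk4, a kinase that restrains pyruvate oxidation, was also lower in all 3 libraries with Dox, at 120 to 212 against 305 to 381 CPM. Its difference was -1.10 (adjusted p = 0.216 in edgeR and 6.41e-05 in DESeq2). Pik3r1, a regulatory subunit of phosphoinositide 3-kinase, was at 126 to 170 CPM without and 179 to 284 with Dox. Its difference was 0.66 (adjusted p = 0.344 in edgeR and 0.0274 in DESeq2). At 20 mg/kg Rh2 Pik3r1 was nearly level, at 0.08 against 0.84 without Rh2 and 1.03 at 30 mg/kg. With Coq10b (-0.50) and Klf15 (0.40), 5 of 17 had an unadjusted p under 0.05 for Dox in edgeR, 2 higher and 3 lower, beside 10.1% of all genes, and 0 passed after adjustment, beside 0.0273%. DESeq2 called 4 of 17 (Ucp3, Pdk4, Pik3r1 and Coq10b), beside 2.33%. Without Rh2-30 the differences of Ucp3, Pdk4 and Pik3r1 were -1.56, -0.99 and 0.64. The median range of the 17 was 0.69.

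**Figure D4:**
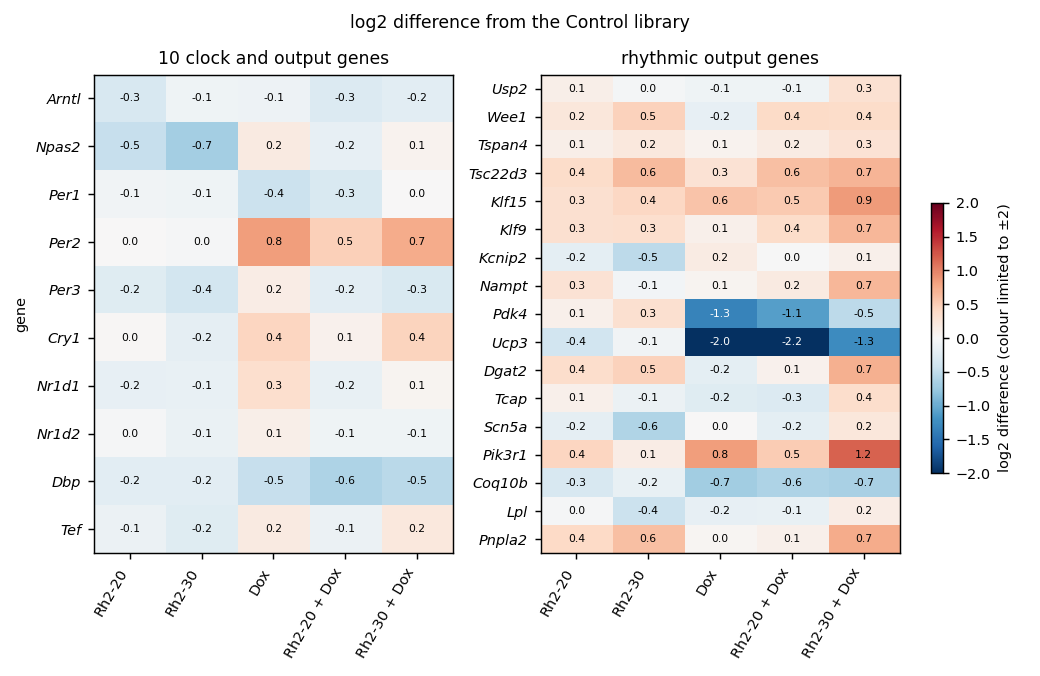
Log2 difference from the Control library (colour, limited to 2 in either direction, with the value printed) in the 5 treated libraries (columns) for the 10 clock genes and 17 rhythmic output genes (rows). The 5 columns share the Control library. Per2 and Pik3r1 are higher in the Dox columns, Dbp, Pdk4 and Ucp3 lower, and most clock rows are pale. Pik3r1 is also at 0.43 in Rh2-20, near its 0.51 in Rh2-20 + Dox.

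Glucocorticoids and temperature also set clock genes, and lists for both were read beside the members. Of 10 glucocorticoid targets, 6 had a range of 2-fold or more, beside 28.4% of all genes tested. The median range was 1.32, against 0.61 over all genes. Fkbp5, a target that curbs the receptor, had 20.8 CPM in Control, 35.2 in Rh2-20, 51.6 in Rh2-30, 51.6 in Dox, 65.3 in Rh2-20 + Dox and 112 in Rh2-30 + Dox, a range of 2.44. With Dox the list did not move as a whole. In Dox against Control, Fkbp5 differed by 1.31 on the log2 scale, Cdkn1a by 0.66, Tsc22d3 by 0.30, Klf9 by 0.11 and Zbtb16 by 0.05. Pdk4 differed by -1.34, Mt1 by -1.10, Mt2 by -1.67, Sgk1 by -0.56 and Per1 by -0.43. For Rh2, with Dox as a term, all 10 differences were positive, from 0.10 (Per1) to 0.92 (Fkbp5), with a median of 0.41. An unadjusted p under 0.05 was reached by 6 of 10 in edgeR, beside 8.74% of all genes. After adjustment 0 passed, beside 0%. DESeq2's Wald test called 3 of 10, beside 1.32%. Per1, which belongs to both lists, had a range of 0.44 and was lowest in Dox. Of 6 temperature-linked genes, 3 heat shock genes (Hsph1, Hspa1a and Hspa1b) had a range of 2-fold or more, beside the same 28.4%. Hspa1a was at 89.7 to 104 CPM in Control, Rh2-30 and Dox, at 53.4 in Rh2-20 + Dox, and at 24.5 and 23.6 in Rh2-20 and Rh2-30 + Dox. Libraries with and without Dox overlapped for Hspa1a. All 4 with Rh2 lay below the 2 without, as did 9.08% of all genes. The log2 difference for Rh2 was -1.13 (adjusted p = 0.590, edgeR). Hspa1b was also lower in all 4, while Hsph1 overlapped. Cirbp and Rbm3, of the same list, lay wholly higher with Dox, 2 of 6 beside 7.85% of all genes. Their log2 differences with Dox were 0.49 and 0.30 (adjusted p = 0.415 and 0.420, edgeR). The part of either list in the clock values was not tested.

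The genes whose pattern was most like that of Dbp and of Arntl were taken from 1996 tested genes that averaged 100 counts or more and had a range of 2-fold or more. For Dbp these were Gm2974, Gm3264, LOC100861615, LOC102638110 and Gm2897, with Pearson's r of 0.98 to 0.99 over the 6 libraries. Gm2974, Gm3264 and Gm2897 lie on chromosome 14. For Arntl they were Slc10a3, Irs2, Kcnk2, Plk3 and Unc13c, with r of 0.85 to 0.91, and Slc10a3 was among them with 0 to 398 counts. The members themselves could not be among the candidates, since none had a 2-fold range.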

How the data were processed

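RNA of 6 pooled heart libraries was analysed, 1 for each condition named in the labels. The authors' deposited read counts are whole numbers per gene, not normalized, made with SureSelect capture, Trimmomatic, HISAT2 2.1.0 and StringTie 2.1.3b on mm10 (names and versions from the submitters' processing notes). The authors' deposited FPKM values are scaled to transcript length and library size and served for levels and alternatives. The authors' deposited TPM values were not used here. How reads of overlapping or similar genes are shared out thus rests on StringTie.

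In R 4.3.3, edgeR 4.0.16 gave TMM-normalized CPM (prior count 0.5), and its two-sided quasi-likelihood test (p-values adjusted after Benjamini and Hochberg) compared 3 libraries with Dox with 3 without, and 4 with Rh2 with 2 without, for 18328 genes with a mean count of 10 or more. Single libraries were compared without a p-value, by exact conditional binomial 95% intervals, which cover counting error only, and by wider ones with the common dispersion of 0.0285 (6 libraries taken as 1 group, so treatment differences are part of it). DESeq2 1.42.0 was an alternative, as were its size factors, no filter on low counts, Rh2 dose as a term, no Dox term, a prior count of 2, FPKM plus 1 or plus 0.1, and each library left out. Exact permutation used scipy 1.17.1, and figures matplotlib 3.10.9. The steps were tested on simulated data.

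The named genes were the 10 members, other clock and rhythmic genes past 2-fold, and the 5 genes most like Dbp and like Arntl. Clock, Coq10b, Klf15, Fbxl21, the glucocorticoid targets, the heat shock genes, Cirbp, Rbm3, Thra, Sphk2 and Uts2 were named after their values were seen. The values of some listed genes are not reported here. The members and lists were chosen with earlier results of these data known.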

Additional observations from a re-analysis of the deposited data

Results flagged for a closer look

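In the 4 libraries with Rh2, Nr1d1 had 1 value far from the others. Rh2-30 + Dox was at 134 CPM, and Rh2-20, Rh2-30 and Rh2-20 + Dox were at 115, 116 and 115. Its gap to the nearest of them was 0.95 of the whole range on the log2 scale. Chance alone marks about 1 in 20 groups in this way, and these 4 libraries differ in Rh2 dose and in Dox.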

How the results depend on the processing

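For Dox, the count of all genes with an adjusted p under 0.05 was 5 in edgeR's quasi-likelihood test, 425 with DESeq2's Wald test and 0 with Rh2 dose as a term, and it ran from 0 to 14 when 1 library was left out (3 without Rh2-30, 14 without Rh2-30 + Dox and 0 without each of the other 4). The fit with the dose term had 1598 genes at an unadjusted p under 0.05. DESeq2 called 2 members for Dox in place of 0, and for Rh2 it called 242 genes and 1 member in place of 0. Leaving out 1 library turned the sign of 4 small differences, none of them past a threshold: for Dox, Arntl ran from -0.14 to 0.0024 (positive without Control), Per3 from -0.066 to 0.20 and Nr1d2 from -0.034 to 0.073 (both negative without Dox), and for Rh2, Per1 ran from -0.076 to 0.29 (negative without Dox). The dispersion and the number of residual degrees of freedom differ between these tests, and the cause of the differences in calls was not tested. No member reached a 2-fold range or a 2-fold difference from Control under any alternative. Of the single values without a test, 57 of 250 against Control and 26 of 110 ranges moved by more than the spread between libraries or their counting interval. All the moved values against Control came with FPKM, 29 of 50 with FPKM plus 1 and 28 of 50 with FPKM plus 0.1. Each of these FPKM settings moved 7 of 10 ranges, and the other moved ranges came with 1 library left out. Among the members, depth limits Arntl most. The labels give no replicate numbers, so libraries with and without Dox can be paired only by Rh2 dose, which is what the fit with the dose term does.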
